A study of Homo sapiens with 9 samples.

Results

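The 10 genes described here, CTGF, CYR61, AMOTL2, AXL, MYOF, ASAP1, DOCK5, F3, CRIM1 and FJX1, are established transcriptional targets of YAP and TAZ. They were taken from general knowledge of that pathway, by symbol, but with earlier results of these data known. They are 10 of the 19930 genes with values in the table. CTGF and CYR61 are the older symbols of CCN2 and CCN1. RNA was sequenced from cells labelled MDA-MB-453, an established human breast cancer line, 48 h after transfection with siRNA by Lipofectamine 2000. Cells of the group X453_NC received a control siRNA, and those of X453_1 and X453_2 are both labelled as knockdown of Linc00673, a long noncoding RNA. Each group holds 3 libraries, named base, r1 and r2 here, and every group received siRNA and transfection reagent, so no library comes from untouched cells. The labels do not say whether the libraries come from separate cultures, so P values measure only the spread between these samples. The targeted RNA itself was not analysed here. The question was how known YAP and TAZ targets stood in both knockdown groups relative to X453_NC, and whether these groups differed from each other.

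YAP, and its relative TAZ, which is encoded by WWTR1, are transcriptional coactivators that lack a DNA-binding domain and reach their targets mainly through the TEAD family of DNA-binding proteins. In the Hippo pathway, the kinases MST1 and MST2 activate LATS1 and LATS2, which phosphorylate YAP and TAZ and so keep them out of the nucleus. Target genes such as CTGF and CYR61 are widely used in breast cancer cells as a readout of YAP and TAZ activity, although other factors, AP-1 among them, act on the same genes.

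Values are FPKM, the fragments assigned to a gene divided by its transcript length and by the size of the library. From the steps between low values, the libraries were estimated to hold 23700000 to 27850000 fragments. Libraries of the same group correlated at r = 0.994 to 0.996 across genes, and those of different groups at 0.955 to 0.99. The labelled line is known as luminal, but FOXA1, a defining luminal factor, was listed at group means of 0 to 0.0133 FPKM, at or near 0 in all groups, and the luminal factor GATA3 averaged 0.433 FPKM in X453_NC. The luminal keratin KRT8 averaged 3617 FPKM and ERBB2 17.6 FPKM in X453_NC, beside 378 FPKM of the mesenchymal marker VIM. Of 7 fibroblast markers only COL1A1 and LUM reached a mean of 1 FPKM, and their list summed to 9.54 to 10.15 FPKM in X453_NC, 12.5 to 12.95 FPKM in X453_1 and 11.31 to 12.72 FPKM in X453_2. Of the endothelial and immune markers only CD68 reached 1 FPKM, with the list at 33.42 to 35.27, 46.91 to 50.95 and 56.38 to 60.29 FPKM, while PTPRC stayed at means of at most 0.0367 FPKM. In bulk RNA fewer cells of a type and less RNA per cell cannot be told apart.

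Promoters from RefSeq on GRCh38.p14, each from 250 bases before to 50 bases after a start site, were found for 6 of the 10 genes, with 8 promoters in all. CYR61, CRIM1, ASAP1 and DOCK5 had no entry. The 8 promoters were searched on both strands for GGAATG, the core letters bound by TEAD proteins, and for TGANTCA, the letters bound by AP-1. The 250 bases before the start are printed below for CTGF, the promoter with the most TEAD letters, for the AMOTL2 promoter that holds them, and for F3, the only promoter of these genes with AP-1 letters. Capitals mark the matches and lines read 5′ to 3′ along the gene.
CTGF, chr6:131951373-131951622, minus strand: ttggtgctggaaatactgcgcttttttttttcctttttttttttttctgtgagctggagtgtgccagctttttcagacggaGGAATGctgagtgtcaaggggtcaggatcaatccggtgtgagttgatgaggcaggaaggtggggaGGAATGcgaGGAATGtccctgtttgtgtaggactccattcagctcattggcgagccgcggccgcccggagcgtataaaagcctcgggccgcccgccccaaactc
AMOTL2, chr3:134374448-134374697, minus strand: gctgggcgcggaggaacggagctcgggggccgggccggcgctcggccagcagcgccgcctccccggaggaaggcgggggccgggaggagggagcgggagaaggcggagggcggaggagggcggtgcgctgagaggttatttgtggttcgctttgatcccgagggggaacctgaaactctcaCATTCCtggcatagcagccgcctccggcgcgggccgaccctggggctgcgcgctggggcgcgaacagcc
F3, chr1:94541760-94542009, minus strand: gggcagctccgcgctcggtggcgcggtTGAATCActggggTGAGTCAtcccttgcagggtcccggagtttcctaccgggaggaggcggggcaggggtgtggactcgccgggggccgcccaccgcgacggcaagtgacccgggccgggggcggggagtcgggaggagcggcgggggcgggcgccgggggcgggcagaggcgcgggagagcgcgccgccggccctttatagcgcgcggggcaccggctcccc
The CTGF promoter held the TEAD letters 3 times, starting at -169, -104 and -95 from the start site. AMOTL2 held them once, at -69 on the opposite strand, and of both AXL promoters the downstream one held them once, at -212. F3 held the AP-1 letters at -223 and -210. Of all 35116 promoters in the table, 14.0% held the TEAD letters and 7.71% the AP-1 letters. No match was found in the promoters of MYOF and FJX1. A match is a run of letters and not evidence of binding.

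Against X453_NC, the values as deposited split the genes in both knockdown groups. DOCK5, ASAP1, F3, CRIM1 and MYOF stood higher than X453_NC in every library of X453_1 and X453_2, whereas CTGF, AMOTL2, AXL and FJX1 stood lower in every library of both. CYR61 differed from X453_NC by 0.063 and 0.073 on the log2 scale. A gene was tested if its mean over the 9 libraries was at least 1 FPKM, which 8 of the 10 genes passed, CTGF and CYR61 being below it. It was called if limma on log2(FPKM + 1) gave an adjusted P of at most 0.05 and a fold of at least 1.3, a log2 fold change of 0.38 on that scale, which understates the change of genes at low FPKM. In X453_1, 4 of the 8 tested genes were called higher and 0 lower, where 11.0% and 15.5% of all 12884 tested genes were called higher and lower. In X453_2, 1 was called higher and 2 lower, where the shares of all tested genes were 10.9% and 23.0%. The median log2 fold change of the 8 genes was 0.41 in X453_1 and 0.34 in X453_2, beside 0.0032 and -0.0954 over all tested genes. At an unadjusted P of at most 0.05 with the same fold limit the counts were again 4 and 0 in X453_1, and 1 and 2 in X453_2. Both comparisons share the X453_NC libraries.

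Calls in X453_2 depended on how the libraries were set on a common scale and on the value added before the logarithm. After each library was divided by its median ratio, 5 of the 8 genes were called higher in X453_2 and 1 lower, where 15.3% and 17.3% of all tested genes were called. Of the genes called in X453_2, 32.2% were higher as deposited and 46.8% after this scaling. The added calls were for ASAP1 (0.42), CRIM1 (0.41), F3 (0.44) and MYOF (0.47), and AMOTL2 was no longer called (-0.31). With 0.1 FPKM added in place of 1 and no scaling, 4 genes were called higher in X453_2 and 2 lower. Over all 12884 tested genes 1653 and 3459 were. The higher genes were ASAP1 (0.39), CRIM1 (0.56), DOCK5 (0.77) and F3 (0.52).

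All 10 genes had non-overlapping groups between X453_1 and X453_NC, 6 higher and 4 lower, as did 53.8% of all genes in the table. Between X453_2 and X453_NC, 9 of 10 did, 5 higher and 4 lower, against 56.8% of all genes. These shares include genes below the expression filter, which 8 of the 10 genes passed, so the 2 sides are not alike in level. With 3 libraries against 3, an exact two-sided permutation test on a single gene cannot go below P = 0.1, which each of these genes reached.

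Markers of cell types moved between the groups as well. The luminal list summed to 7032.57 to 7672.95 FPKM in X453_NC, 5835.67 to 6472.31 FPKM in X453_1 and 5973.29 to 6649.04 FPKM in X453_2, and the basal and mesenchymal list to 386.87 to 411.69, 455.73 to 465.12 and 449.63 to 465.84 FPKM. Nearly all of the luminal sum comes from KRT8, KRT18 and KRT19, at means of 3617, 2433 and 1180 FPKM in X453_NC. Nearly all of the other sum comes from VIM, at 378 FPKM there. VIM had log2 fold changes of 0.21 and 0.19 and was called in neither group. Of 6 tested luminal markers, 3 were called lower in X453_1 and 4 in X453_2, where 15.5% and 23.0% of all tested genes were. The log2 fold changes in X453_1 and X453_2 were -0.46 and -0.48 for KRT18, -0.42 and -0.44 for XBP1, and -0.53 and -0.71 for FGFR4. ERBB2 was at -0.25, not called, and -0.45. KRT8, at -0.17 and -0.12, and KRT19, at -0.072 and 0.035, were called in neither group. Below the expression filter, GATA3 averaged 0.433, 0.767 and 0.643 FPKM in X453_NC, X453_1 and X453_2. SPDEF, also below it, averaged 0.727, 0.943 and 1.02 FPKM, so the list did not move in 1 direction. After scaling by the median ratio 3 luminal markers were called lower in X453_1 and 1 in X453_2, and after a correction of each library for a trend on GC content 2 and 1. Among all genes 1985 and 2234 of 12884 were called lower after scaling, and 1273 and 1656 of 11380 after the correction. Of 5 tested basal and mesenchymal markers, 1 was called higher and 1 lower in each group: SNAI2, a repressor of epithelial genes, at 0.99 and 1.55, and the keratin KRT17 at -0.39 and -0.71. The shares of all tested genes were 11.0% and 10.9% higher and 15.5% and 23.0% lower. KRT17 was not called in X453_1 after the correction for GC content. FN1 was at 0.37 and 0.31, not called as deposited and called higher in X453_2 after scaling. COL1A1 was called higher, at 0.44 and 0.62, as was CD68, at 0.51 and 0.76, and LUM was at 0.21 and -0.063. The part of these shifts in the values of the YAP/TAZ target genes was not tested.

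**Figure D1:**
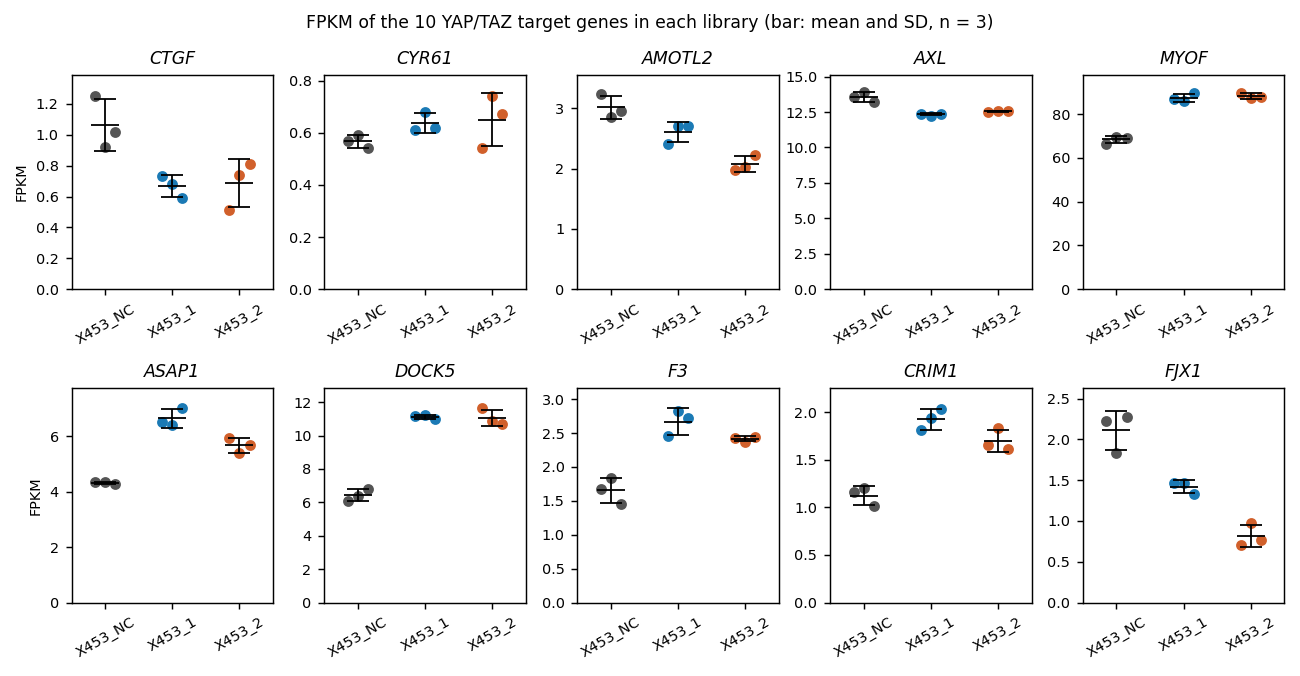
FPKM (vertical axis, from 0) of the 10 YAP/TAZ target genes in each library of X453_NC, X453_1 and X453_2, with bars for the mean and SD of 3 libraries. MYOF, ASAP1, DOCK5, F3 and CRIM1 lie above X453_NC in all 6 knockdown libraries, and CTGF, AMOTL2, AXL and FJX1 below it.

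The secreted matricellular proteins CTGF and CYR61 are the targets most often used as readouts of YAP. CTGF lies on chromosome 6 from 132269316 to 132272518 in the deposited coordinates, for which the sources used here state no build, GRCh37.p13 being the build named, without a role, in the submitters' processing notes. Its FPKM were 1.25, 0.92 and 1.02 in X453_NC, 0.73, 0.68 and 0.59 in X453_1, and 0.51, 0.74 and 0.81 in X453_2. All 6 knockdown libraries were below the lowest control library, and both knockdown groups overlapped with each other. The means were 1.06 ± 0.169, 0.667 ± 0.0710 and 0.687 ± 0.157 FPKM (SD, n = 3), so X453_1 and X453_2 were at 0.627 and 0.646 of the control mean. These values rest on about 53 to 78 fragments per control library and 28 to 43 per knockdown library, which limits their precision. On the log2(FPKM + 1) scale with no filter, the differences were -0.31 (95% interval -0.50 to -0.12, adjusted P = 0.015) and -0.29 (-0.48 to -0.10, adjusted P = 0.017), short of the fold limit. With 0.1 FPKM added in place of 1 and no filter, an alternative chosen after seeing the data, CTGF was called lower in both groups, by -0.60 ± 0.18 (SE, adjusted P = 0.025) in X453_1 and -0.58 ± 0.18 (adjusted P = 0.026) in X453_2. Under that rule 14.1% and 22.1% of all genes were called lower, and 2 and 3 of the 10 genes were.

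CYR61, on chromosome 1 from 86046444 to 86049650, encodes an integrin-binding relative of CTGF. Its FPKM were 0.57, 0.59 and 0.54 in X453_NC, 0.61, 0.68 and 0.62 in X453_1, and 0.54, 0.74 and 0.67 in X453_2. The X453_1 libraries were all slightly above the control libraries, and the X453_2 libraries overlapped with them. The log2 difference with no filter was 0.063 in X453_1 (95% interval -0.046 to 0.17, adjusted P = 0.33) and 0.073 in X453_2 (-0.036 to 0.18, adjusted P = 0.24). These values rest on about 30 to 41 fragments per library.

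AMOTL2, on chromosome 3 from 134074187 to 134094259, encodes a motin-family scaffold that binds YAP and restrains it, so that it is both a target and an inhibitor. Its FPKM were 3.23, 2.86 and 2.95 in X453_NC, 2.41, 2.71 and 2.7 in X453_1, and 1.98, 2.02 and 2.23 in X453_2. The 3 groups did not overlap and stood in the order X453_NC, X453_1, X453_2. The log2 fold change was -0.15 ± 0.062 (SE, adjusted P = 0.051) in X453_1, which was not called, and -0.38 ± 0.062 (adjusted P = 0.00031) in X453_2, which was called lower at the edge of the fold limit. It fell short of that limit without X453_2 base (-0.36), without X453_2 r1 (-0.37) and without X453_NC base (-0.34).

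FJX1, on chromosome 11 from 35639735 to 35642421, encodes a secreted relative of the Drosophila four-jointed kinase, which acts on the Fat and Dachsous cadherins upstream of Hippo signalling in the fly. Its FPKM were 2.23, 1.83 and 2.27 in X453_NC, 1.47, 1.46 and 1.33 in X453_1, and 0.71, 0.97 and 0.77 in X453_2. No library of one group reached into another, and X453_2 was lowest. The group means were 2.11 ± 0.243, 1.42 ± 0.0781 and 0.817 ± 0.136 FPKM (SD, n = 3), or 0.673 and 0.387 of the control. FJX1 fell in X453_2 by 0.78 ± 0.081 on the log2 scale (SE, adjusted P = 1.5e-05), and by 0.37 after a correction for GC content, where it was no longer called. In X453_1 the log2 fold change of -0.36 ± 0.081 (adjusted P = 0.003) was under the fold limit, which it passed without X453_NC r1 (-0.43), and it turned to 0.017 after the same correction (adjusted P = 0.81).

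Of the cell-surface proteins, AXL is a receptor tyrosine kinase of the TAM family. The gene lies on chromosome 19 from 41725104 to 41767672. Its FPKM were 13.57, 13.94 and 13.23 in X453_NC, 12.37, 12.25 and 12.39 in X453_1, and 12.51, 12.59 and 12.58 in X453_2. The knockdown groups were tightly placed below the control group, at 0.908 and 0.925 of the control mean. The log2 fold changes of -0.13 ± 0.033 (adjusted P = 0.0062) and -0.10 ± 0.033 (adjusted P = 0.016) were far under the fold limit. In X453_2 the value was -0.0053 after scaling by the median ratio (adjusted P = 0.89) and -0.00058 after a correction for GC content (adjusted P = 0.99), so its lower level there rests on the scale as deposited.

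F3, on chromosome 1 from 94994732 to 95007413, encodes tissue factor, the receptor that starts the extrinsic pathway of blood coagulation. Its FPKM were 1.68, 1.83 and 1.46 in X453_NC, 2.45, 2.83 and 2.72 in X453_1, and 2.43, 2.37 and 2.44 in X453_2. All knockdown libraries were above the control libraries, at 1.61 and 1.46 times the control mean. F3 rose in X453_1, with a log2 fold change of 0.47 ± 0.067 (SE, adjusted P = 0.00017). In X453_2 it was 0.36 ± 0.067 (adjusted P = 0.00072), just under the fold limit, and it passed the limit without X453_NC r1 (0.41).

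CRIM1, on chromosome 2 from 36583370 to 36778278, encodes a transmembrane protein with cysteine-rich repeats that binds bone morphogenetic proteins. Its FPKM were 1.16, 1.2 and 1.01 in X453_NC, 1.81, 1.94 and 2.03 in X453_1, and 1.66, 1.83 and 1.61 in X453_2. Every knockdown library was above every control library, and the knockdown groups overlapped with each other. CRIM1 rose in X453_1 by 0.46 ± 0.065 on the log2 scale (adjusted P = 0.00015), and its value in X453_2 was 0.35 ± 0.065 (adjusted P = 0.00082), under the fold limit. The ratios of mean FPKM were 1.72 and 1.51.

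MYOF, ASAP1 and DOCK5 encode intracellular proteins of membranes and the cytoskeleton. MYOF, on chromosome 10 from 95066186 to 95242074, encodes myoferlin, a membrane protein with C2 domains that acts in membrane repair and fusion. Its FPKM were 66.5, 69.46 and 69.26 in X453_NC, 86.77, 86.09 and 89.51 in X453_1, and 89.6, 87.09 and 87.9 in X453_2. The control libraries stood clearly below the others, and both knockdown groups overlapped. With log2 fold changes of 0.35 ± 0.029 (adjusted P = 4.8e-06) and 0.36 ± 0.029 (adjusted P = 2.6e-06), MYOF had small P values but missed the fold limit in both groups, at 1.28 and 1.29 times the control mean.

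ASAP1, on chromosome 8 from 131064350 to 131455906, encodes an Arf GTPase-activating protein of focal adhesions and invadopodia. Its FPKM were 4.34, 4.35 and 4.27 in X453_NC, 6.51, 6.41 and 7.04 in X453_1, and 5.94, 5.4 and 5.7 in X453_2. The 3 groups did not overlap, with X453_1 highest. ASAP1 rose in X453_1 by 0.52 ± 0.048 on the log2 scale (adjusted P = 8.9e-06), whereas 0.33 ± 0.048 in X453_2 (adjusted P = 0.00017) was under the fold limit.

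DOCK5, on chromosome 8 from 25042238 to 25273232, encodes a guanine nucleotide exchange factor of Rac. Its FPKM were 6.09, 6.4 and 6.8 in X453_NC, 11.15, 11.21 and 10.97 in X453_1, and 11.63, 10.85 and 10.68 in X453_2. Both knockdown groups lay far above the control libraries and overlapped with each other. DOCK5 was called in both groups, rising by 0.71 ± 0.047 (SE, adjusted P = 1.2e-06) in X453_1 and 0.70 ± 0.047 (adjusted P = 7.7e-07) in X453_2, or 1.73 and 1.72 times the control mean.

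**Figure D2:**
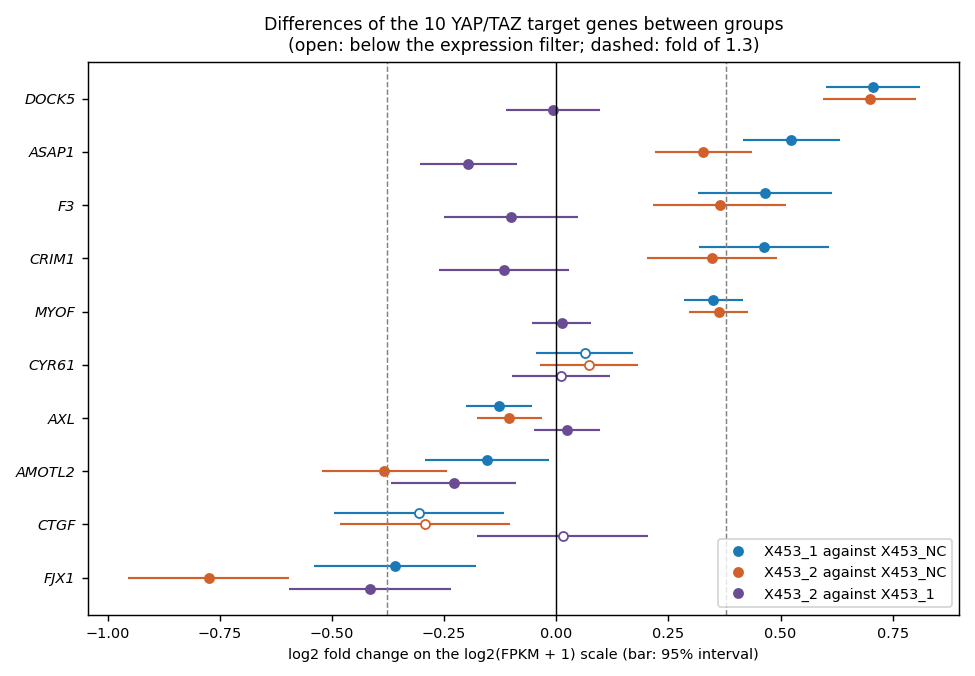
Log2 fold change on the log2(FPKM + 1) scale (horizontal axis) of the 10 genes with 95% intervals, for X453_1 and X453_2 against X453_NC and for X453_2 against X453_1. Open points mark CTGF and CYR61, below the expression filter and shown from a fit with no filter, and dashed lines mark a fold of 1.3. DOCK5 lies at 0.71 and 0.70, and FJX1 at -0.36 and -0.78.

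Levels spanned a wide range. By mean FPKM over the 9 libraries the order was MYOF (81.4), AXL (12.8), DOCK5 (9.53), ASAP1 (5.55), AMOTL2 (2.57), F3 (2.25), CRIM1 (1.58), FJX1 (1.45), CTGF (0.806) and CYR61 (0.618). MYOF stood above 96% of the genes in the table and CYR61 above 30.2%. In X453_NC, CRIM1 and CTGF overlapped, and the highest F3 library equalled the lowest FJX1 library. In X453_2, FJX1 and CTGF overlapped, as did CTGF and CYR61, and F3 was above AMOTL2, which was the reverse of their order in X453_NC.

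Both knockdown groups were also set against each other. In X453_2 against X453_1, 0 of the 8 tested genes were called higher and 1, FJX1, lower, where 2.06% and 5.32% of all tested genes were. FJX1 fell by a further 0.42 ± 0.081 on the log2 scale (SE, adjusted P = 0.0028). It was under the fold limit without X453_2 base (-0.37) and after scaling by the median ratio (-0.36), and was called after the correction for GC content (-0.39). At an unadjusted P of at most 0.05 with the same fold limit, 0 were higher and 1 lower.

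AMOTL2 was at -0.23 ± 0.062 in X453_2 against X453_1 (adjusted P = 0.014) and ASAP1 at -0.20 ± 0.048 (adjusted P = 0.009), both under the fold limit. For MYOF the difference was 0.012 (95% interval -0.053 to 0.078), for DOCK5 -0.0076 (-0.11 to 0.097) and for AXL 0.024 (-0.049 to 0.097). F3 was at -0.10 (-0.25 to 0.047) and CRIM1 at -0.12 (-0.26 to 0.029). DOCK5 turned to 0.091 after scaling and 0.098 after the correction for GC content, and F3 to 0.0088 after the latter. The groups did not overlap for 5 of the 10 genes, 1 higher and 4 lower, against 40.1% of all genes in the table, those below the expression filter included. Of the genes called in this comparison, 28% were higher as deposited, 62% after scaling and 57.1% after the correction for GC content.

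**Figure D3:**
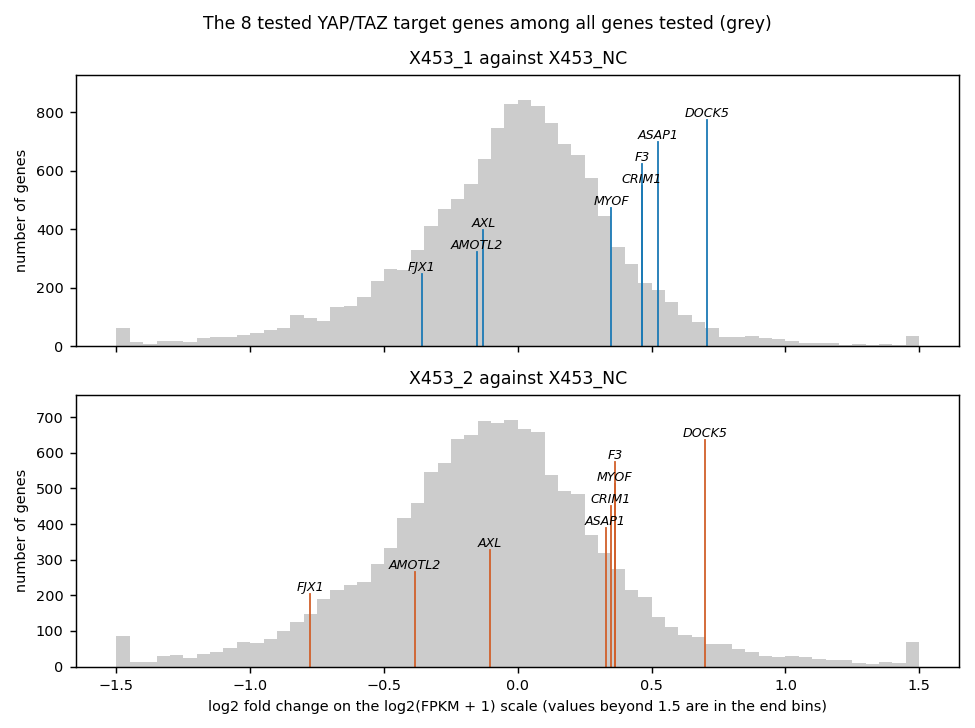
Number of tested genes (vertical axis, grey) by log2 fold change on the log2(FPKM + 1) scale for X453_1 (top) and X453_2 (bottom) against X453_NC, with vertical lines for the 8 tested YAP/TAZ target genes; line heights only separate the names. MYOF, CRIM1, F3, ASAP1 and DOCK5 lie right of 0 in both panels, with DOCK5 furthest, and FJX1, AMOTL2 and AXL lie left of 0.

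The genes that stood higher and those that stood lower differed in the base composition of their transcripts. GC content of the longest transcript was 43.7% for F3, 44.2% for ASAP1, 45.1% for DOCK5, 46.6% for MYOF and 47.2% for CRIM1, the genes that stood higher in both groups. It was 51.5% for CTGF, 53.9% for AXL, 56.7% for AMOTL2 and 63.8% for FJX1, the genes that stood lower, and 50.3% for CYR61. Ordered by GC content and cut into 5 bins of about equal size, the tested genes had a median log2 fold change in X453_1 of 0.0815 in the lowest bin and -0.295 in the highest, from 58.6% to 73.9% GC, where FJX1 lies. The same medians in X453_2 were -0.05 and -0.345.

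After a correction of each library for a smooth trend on GC content, the genes that stood higher remained between 0.29 and 0.74, and AXL, AMOTL2 and FJX1 came closer to 0, CTGF being below the filter and not in this fit. DOCK5 was at 0.64 and 0.74, ASAP1 at 0.45 and 0.37, F3 at 0.40 and 0.40, CRIM1 at 0.40 and 0.39, and MYOF at 0.29 and 0.40 in X453_1 and X453_2. FJX1 turned from -0.36 to 0.017 in X453_1 (adjusted P = 0.81) and moved from -0.78 to -0.37 in X453_2 (adjusted P = 0.00012), where it was no longer called. AMOTL2 moved to -0.062 and -0.22. After this correction 4 of the 8 genes were called higher in X453_2 and 0 lower, beside 15.3% and 14.6% of all genes with known GC content, and 51.3% of all called genes were higher. DOCK5, ASAP1, F3 and CRIM1 were called higher in X453_1 with and without the correction.

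**Figure D4:**
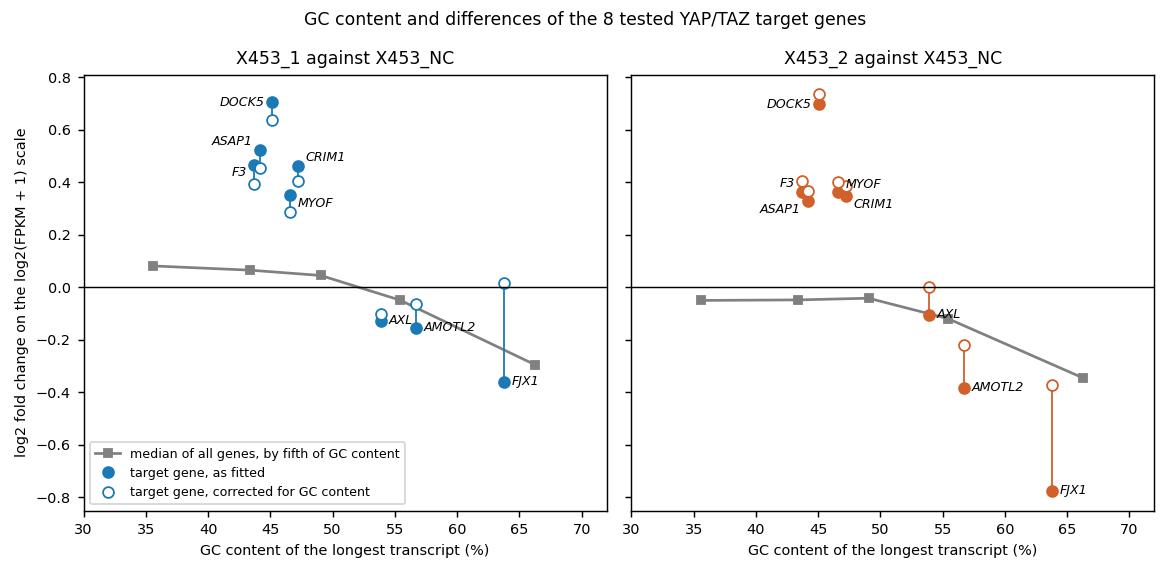
Log2 fold change (vertical axis) against GC content of the longest transcript in percent (horizontal axis) of the 8 tested YAP/TAZ target genes, as fitted (filled) and after a correction for GC content (open), for X453_1 (left) and X453_2 (right) against X453_NC. Grey squares are medians of all tested genes in 5 bins of GC content, placed at the middle of each bin, and FJX1, at 63.8% GC, moves most.

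A list of 12 other YAP/TAZ targets held 8 tested genes. Of these, 3 were called higher and 0 lower in each group, beside 11.0% and 15.5% of all tested genes in X453_1 and 10.9% and 23.0% in X453_2, and the counts were the same after scaling and after the GC correction, with medians of 0.15 and 0.047 as deposited. NUAK2, a kinase of the AMPK family, was at 0.73 ± 0.054 in X453_1 and 0.81 ± 0.054 in X453_2 (adjusted P = 2.3e-06 and 7.6e-07). GADD45A, a stress-induced growth arrest gene, was at 0.42 and 0.81, and CCDC80, a matrix-associated secreted protein, at 0.49 and 0.75. LATS2, itself both a target and a kinase that inhibits YAP, was at 0.21 and 0.062 and was not called. PTPN14 was at 0.083 and 0.033, not called. Below 0 in both groups and not called were ARHGEF17 (-0.27 and -0.35), FOXF2 (-0.17 and -0.30) and IGFBP3 (-0.13 and -0.23). After the GC correction ARHGEF17 turned to 0.057 and 0.011, and FOXF2 to 0.19 and 0.095. ANKRD1, often paired with CTGF as a readout, was at group means of 0.0133 to 0.07 FPKM, below the expression filter.

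The factors that act on these genes moved in both directions. WWTR1, which encodes TAZ, was at 5.27, 5.43 and 5.63 FPKM in X453_NC, 11.18, 10.84 and 11.07 in X453_1, and 10.62, 9.97 and 10.64 in X453_2. It rose by 0.90 ± 0.041 and 0.82 ± 0.041 on the log2 scale (adjusted P = 1e-07 in both). YAP1 was at means of 43.1, 40.5 and 35.3 FPKM, with log2 fold changes of -0.087 (adjusted P = 0.1) and -0.28 (adjusted P = 0.00023), neither called. TEAD3 fell by 0.69 and 0.68, and TEAD2 was at -0.43 in X453_1, where it was called lower, and -0.31 in X453_2. TEAD1 went the other way, at 0.30 and 0.19, and TEAD4 was at -0.20 and -0.19, none called. After the correction for GC content TEAD4 turned to 0.012 and 0.082. Of the 7 tested genes of this list, 1 was called higher and 2 lower in X453_1, and 1 higher and 1 lower in X453_2, beside 11.0% higher and 15.5% lower of all tested genes in X453_1 and 10.9% and 23.0% in X453_2, TEAD2 being lost in X453_1 after the correction for GC content.

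Of 13 Hippo kinases and adaptors, all tested, 0 were called higher in either group, where 11.0% and 10.9% of all tested genes were. In X453_1 1 was called lower, the upstream kinase TAOK2 at -0.40, and in X453_2 2 were, TAOK2 at -0.67 and its relative TAOK3 at -0.40, beside 15.5% and 23.0% of all tested genes, and 0 were called in either group after the correction for GC content. MAP4K4, which phosphorylates LATS kinases, was at 0.36 and 0.097, and LATS1 at 0.31 and 0.22, none called. For this and each other list, the counts were the same at an unadjusted P of at most 0.05 with the same fold limit.

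**Figure D5:**
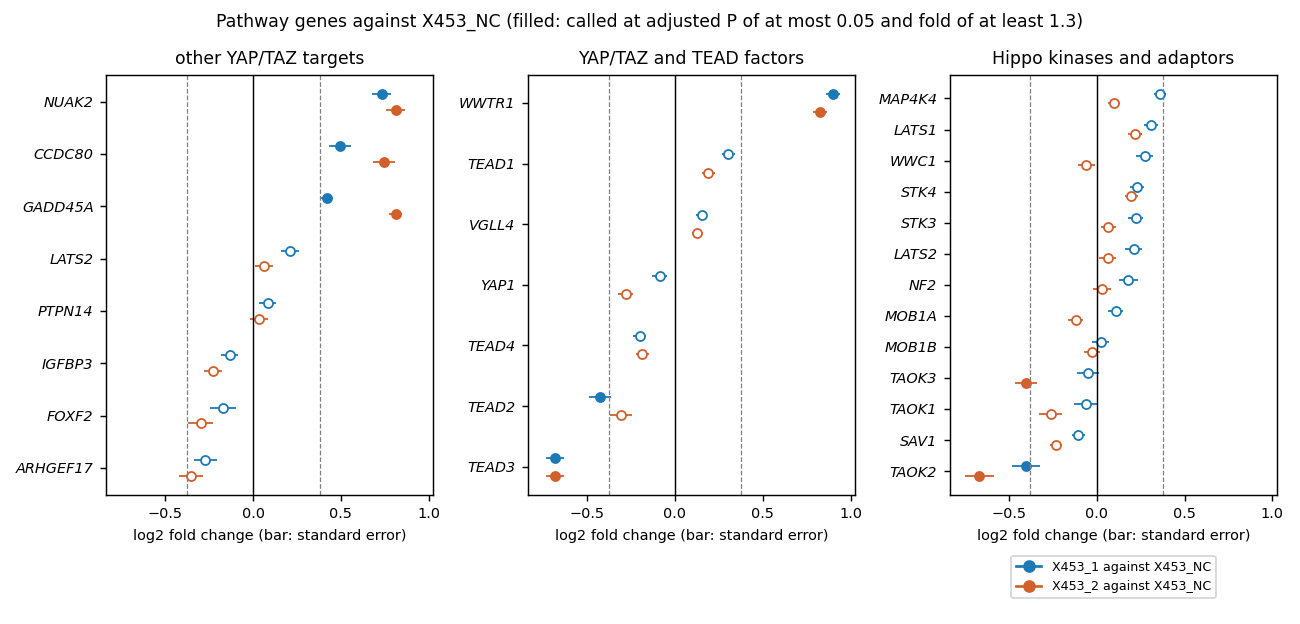
Log2 fold changes against X453_NC (horizontal axes, with standard errors) of the tested genes among other YAP/TAZ targets, YAP/TAZ and TEAD factors, and Hippo kinases and adaptors; filled points were called. NUAK2, CCDC80, GADD45A and WWTR1 lie to the right of the fold limit (dashed) in both groups, and TEAD3 and TAOK2 to the left.

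Relatives and partners of the 10 genes were followed as well. Among 7 tested relatives, 2 were called higher in each group and 0 lower, beside 11.0% and 10.9% higher and 15.5% and 23.0% lower over all tested genes. AMOT, the motin paralogue of AMOTL2, was at 0.67 and 0.45, opposite in sign to AMOTL2, and DOCK4, a relative of DOCK5, at 0.58 and 0.42. DOCK1 was at 0.23 and 0.15 and was not called. As deposited, the ASAP1 relatives ASAP2 (-0.014 and -0.30) and ASAP3 (-0.04 and -0.23) were below 0 in both groups and not called. So were the AXL relatives MERTK (-0.048 and -0.33) and TYRO3 (-0.041 and -0.014). The median of the tested relatives was -0.014 in both groups. Among 9 tested partners, 0 were called higher in either group, 2 lower in X453_1 and 3 lower in X453_2, beside 15.5% and 23.0% of all tested genes. GAS6, the ligand of AXL, was at -0.46 and -0.53, and PROS1, a ligand of the TAM family, at -0.31, not called, and -0.51. After the correction for GC content GAS6 was called in neither group and PROS1 in both. F10, the coagulation factor that tissue factor and factor VII activate, was at -0.76 and -0.67.

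Genes of AP-1 and other immediate early genes, some of whose products bind at sites shared with TEAD, were followed as a further list. Of 14 tested, 5 were called higher in X453_1 and 8 in X453_2, and 0 lower, beside 11.0% and 10.9% higher over all tested genes, with medians of 0.29 and 0.64. After the correction for GC content 8 and 12 were called higher, with medians of 0.42 and 0.96, and after scaling 5 and 10. JUN was at 0.996 and 2.02, ATF3 at 0.69 and 1.35, and DUSP1, a phosphatase of MAP kinases, at 1.15 and 2.60. Other genes of the list were below 0 in X453_1 and not called there: JUNB (-0.27), JUND (-0.28) and IER2 (-0.31). In X453_2 these were at 0.48, called higher, -0.066 and 0.13. IER3 (-0.24 and -0.34) and MYC (-0.056 and -0.25) were below 0 in both groups, not called. After the GC correction JUNB turned to 0.16 and JUND to 0.38 in X453_1. In X453_2 against X453_1, 8 of the 14 were called higher, beside 2.06% of all tested genes. F3, whose promoter holds AP-1 letters, was at 0.47 and 0.36, and a link between F3 and these genes was not tested.

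As a description over the 9 libraries, which share groups and so correlate readily, the named genes closest to each target were listed by Pearson's r of log2(FPKM + 1). They were DSP (0.998) and MIPEP (0.998) for DOCK5, NBPF1 (0.997) and NBPF14 (0.997) for MYOF, and CDC42EP3 (0.994) and GINS1 (0.994) for ASAP1. For F3 they were TTC1 (0.989) and PPP2CA (0.988), and for CRIM1 POLR2K (0.992) and STOM (0.985). FJX1 was closest to FANCE (0.996) and GAK (0.993), AMOTL2 to BDH1 (0.992) and OXA1L (0.987), and AXL to GSTT1 (0.989) and LOC389831 (0.977). Between 79 genes, for AXL, and 783, for MYOF, had an r of at least 0.95.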

How the data were processed

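RNA was extracted with Trizol 48 h after transfection and sequenced on the BGISEQ-500 platform. The authors deposited 1 table of FPKM per gene and library, rounded to 2 decimals; the FPKM columns occur 2 times, hold equal values, and were read from their first occurrence. Bowtie2 and GRCh37.p13 are named in the submitters' processing notes without a role, and the counting tool is not given in the sources used here. The table also holds the authors' log2 ratios with P and Q values, which were not used. Of 19934 lines, 4 without values were left out, and 17089 of the other 19930 genes are known genes.

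The FPKM were analysed as log2(FPKM + 1) after a filter that kept 12884 genes averaging 1 FPKM or more, with limma 3.58.1 in R 4.3.3 (lmFit, eBayes with a trend; group as the only factor; all 9 libraries), and P values were adjusted by Benjamini-Hochberg over these genes. The fit was tested on simulated data. Lists were described by counts and medians beside those of all genes tested. Fragments per library, 23700000 to 27850000, were estimated from the steps of low FPKM in 208 to 235 genes per library. GC content came from GENCODE release 29 transcripts, for 88.3% of tested genes, and was used for names and composition, not coordinates.

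Named were all 10 target genes, the 3 genes of each other list with the largest mean change, YAP1, WWTR1, ANKRD1 and LATS2 in any case, and the 2 genes closest to each tested target. TAOK3, NT5E, ARHGEF17, FOXF2, IGFBP3, PTPN14 and the markers KRT8, KRT19, ERBB2, SPDEF, FOXA1, GATA3, VIM and PTPRC were added after their values were seen. So were TEAD1, TEAD4, ASAP2, ASAP3, MERTK, TYRO3, JUNB, JUND, IER2, IER3 and MYC. The target genes and lists were chosen with earlier results of these data known. Alternatives were another added value, other filters and fold limits, an unadjusted P, scaling, a GC correction, fits of 2 groups, a replicate block, and leaving out each library. 1 cell marker is not reported here.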

Additional observations from a re-analysis of the deposited data

Results flagged for a closer look

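FJX1 differed between both knockdown groups, with a log2 difference of X453_2 against X453_1 of -0.42 ± 0.081 (SE) and an adjusted P of 0.0028 in the limma fit (-0.4159 before rounding). All 3 libraries of X453_2, at 0.71, 0.97 and 0.77 FPKM, were below those of X453_1, at 1.47, 1.46 and 1.33 FPKM. The X453_2 values rest on about 46 to 63 fragments per library and those of X453_1 on 87 to 98.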

How the results depend on the processing

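Of 396 values of single genes under alternatives, for 24 results, 378 kept their direction and side of the adjusted P limit, 6 became weaker, 6 stronger and 6 reversed. Many of these values could not reverse. A change of filter alone, fits of 2 groups, the replicate block and leaving out a library of the group not compared leave the log2 fold change as it is. Only the adjusted P can move there. The reversed values were DOCK5 in X453_2 against X453_1 after scaling (0.091), after the GC correction (0.098), without X453_2 r1 (0.0043) and without X453_2 r2 (0.015; leaving out each library gave -0.042 to 0.015), F3 in the same comparison after the GC correction (0.0088), and FJX1 in X453_1 after the GC correction (0.017); the cause was not tested.

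With a minimum of 5 FPKM, which tests fewer genes, 2 genes were called higher in X453_1, and 0 lower in X453_2 or between the knockdown groups. Of all 8610 genes tested then, 924 were higher in X453_1, 1765 lower in X453_2 and 346 lower between the knockdown groups. With a fold limit of 2, 0 were called in any comparison and direction. Of all 12884 tested genes, 103 and 260 were then higher and lower in X453_1. In X453_2 these were 213 and 390, and between the knockdown groups 25 and 11. Without a fold limit, 2 were lower in X453_1, 5 higher in X453_2, and 3 lower in X453_2 against X453_1. The same counts over all 12884 tested genes were 4163, 3349 and 4362. With 0.1 FPKM added, 1 was lower in X453_1 and 4 higher in X453_2, and with no filter as well, 2 and 4. Over all genes these counts were 2282 and 1653 of 12884, and with no filter as well 2812 and 2202 of 19930. Scaling gave 5 higher and 1 lower in X453_2 and 0 lower between the knockdown groups, and the GC correction 4 higher and 0 lower in X453_2. Over all 12884 tested genes, scaling gave 1967 and 2234 in X453_2 and 305 lower between the knockdown groups. The GC correction gave 1742 and 1656 of 11380 in X453_2. Leaving out each library in turn gave 0 to 1 lower in X453_1 (1 without X453_NC r1), 1 to 2 higher in X453_2 (2 without X453_NC r1), 1 to 2 lower in X453_2 (1 without X453_2 base, X453_2 r1 or X453_NC base) and 0 to 1 lower between the knockdown groups (0 without X453_2 base). Over all 12884 tested genes these counts ranged from 1904 to 2065, 1389 to 1423, 2877 to 3035 and 643 to 736.

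The replicate labels do not pair the libraries: deviations of libraries with the same label correlated at -0.239 to 0.104, and 1 of 9 correlated best with its own label. With the labels as a replicate block, the calls among the target genes stayed at 4 higher and 0 lower in X453_1, 1 and 2 in X453_2, and 0 and 1 between the knockdown groups, and those over all genes were 1426 and 1991, 1409 and 2970, and 262 and 687.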

Other observations

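NT5E, which encodes the ecto-5'-nucleotidase CD73 and is on the list of other YAP/TAZ targets, lay below the expression filter and was picked after its values were seen. Its FPKM were 0.33, 0.31 and 0.37 in X453_NC, 0.89, 0.89 and 0.81 in X453_1, and 0.84, 0.79 and 0.83 in X453_2, with no overlap between the control and the knockdown libraries. No test of it is reported here.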
